A study of Mus musculus with 6 samples.

Results

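The genes described here are 10 brakes on cell division: the Cip/Kip inhibitors of cyclin-dependent kinases Cdkn1a (p21), Cdkn1b (p27) and Cdkn1c (p57), the Ink4 inhibitors Cdkn2c (p18) and Cdkn2d (p19), the Btg/Tob genes Btg1, Btg2, Tob1 and Tob2, and Gadd45g. They were chosen by gene symbol, and the counts table holds 1 gene for each symbol, 10 of 22001 genes in all. Each of the 10 had enough counts to be tested, as had 13560 genes of the table. RNA was sequenced from mouse neocortical cells positive for the red fluorescent protein mCherry. Plasmids had been introduced at E13.5 by in utero electroporation, in which a current drives injected DNA into cells of the living embryo's brain, and the tissue was dissected at E14.5. The 3 control libraries came from embryos that received a plasmid for mCherry alone, and the 3 Insm1 libraries from embryos whose plasmid encoded the zinc-finger factor Insm1 as well as mCherry. The labels give no strain, no promoter of the plasmids, and no word on whether libraries came from separate litters or pooled embryos, so the tests read only how much these libraries vary, and some of that variation may be technical.

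Progress through G1 depends on cyclin D with Cdk4 or Cdk6 and on cyclin E with Cdk2, which phosphorylate the retinoblastoma family and release E2f factors. Ink4 proteins bind Cdk4 and Cdk6, whereas Cip/Kip proteins bind assembled cyclin-Cdk complexes. Btg and Tob proteins bind the Cnot7 and Cnot8 deadenylases of the Ccr4-Not complex and so speed the decay of messenger RNA. In the embryonic cortex p27 and p57 are known for their part in cell cycle exit, Btg2 (also called Tis21) is known as a marker of progenitors that go on to make neurons, and Gadd45g, a stress-response protein that binds the kinase Map3k4, is known as a gene of early neuronal commitment.

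None of the 10 genes passed the test. At an adjusted p below 0.05, edgeR's quasi-likelihood test called 0 of 10 members, where it called 3.35% of all tested genes, 1.23% higher and 2.12% lower with Insm1. At an unadjusted p below 0.05 there were 2 members, Cdkn1b and Cdkn1c, both with a positive difference, where 17.2% of tested genes reached that level, 7.56% higher and 9.69% lower. DESeq2 called 1 of 10 members, Cdkn1c, higher, against 7.49% of tested genes, 3.13% higher and 4.37% lower. Limma-voom called 0 of 10, against 2.80% of genes, 1.09% higher and 1.71% lower. Limma called 0 of 10 on log2(TPM + 1), against 0.446% (0.104% higher, 0.342% lower), and 0 of 10 on log2(TPM + 0.1), against 0.475% (0.111% higher, 0.364% lower). Without control 2 edgeR called 1 of 10, Cdkn1b, higher, against 4.76% of genes, 1.67% higher and 3.08% lower. In 1 of 10 members, Cdkn1b, all Insm1 libraries lay above all controls. Such separation was seen in 22.2% of all tested genes, 10.4% higher and 11.8% lower. The median log2 fold change of the members was -0.04, beside -0.01 over all tested genes, with 4 members positive and 6 negative.

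The forced gene was present as labelled. Insm1 stood at 222, 331 and 371 CPM (counts scaled to the TMM-adjusted library size) in controls 1, 2 and 3 and at 1570, 2173 and 1436 CPM in Insm1 libraries 1, 2 and 3. Library totals lay between 30017645 and 31645135 counts. Markers of the dorsal telencephalon were detected. Emx1 lay between 69.7 and 76.1 CPM in the controls and between 86.8 and 98.6 CPM with Insm1, and Tbr1 between 312.5 and 362 CPM and between 392 and 403 CPM. In this list edgeR called Lhx2, Emx1, Neurod6 and Tubb3 higher and 0 genes lower, while Pax6, Emx2, Neurog2 and Eomes overlapped between groups. Pax6 and Emx2 had log2 fold changes of -0.10 and -0.19 (edgeR adjusted p = 0.567 and 0.566). Markers of endothelium summed to at most 2.14 CPM in a library and those of oligodendrocyte precursors to at most 1.78 CPM. Red cell transcripts summed to between 186 and 3133 CPM in the controls and between 1713 and 3669 CPM in the Insm1 libraries, and those of microglia to between 1.10 and 62.2 CPM and between 9.05 and 32.3 CPM. Control 2 was the highest control in both, with 3133 and 62.2 CPM. Cajal-Retzius genes summed to 135, 34.3 and 129.7 CPM in controls 1, 2 and 3 and to 51.4, 40.1 and 35.3 CPM in Insm1 libraries 1, 2 and 3, so that controls 1 and 3 stood above the other libraries. Some cell type markers moved with the groups. Of 8 apical progenitor genes edgeR called 4 lower and 0 higher, their sum running from 2861 to 3409 CPM in the controls and from 2220 to 2675 CPM with Insm1. Basal progenitor genes, with the members left out, had sums that overlapped, from 1525 to 1624 CPM and from 1560 to 1748 CPM. In that list 1 of 6 genes was called higher and 0 lower. Of 8 projection neuron genes 3 were called higher and 0 lower, with sums from 6898 to 7219 CPM and from 7921 to 8606 CPM. Neurod6 and Tubb3 are in this list as well as in that of the dorsal telencephalon. Not all neuron genes rose. Stmn2, named after its values were seen, was not called by edgeR. It was at 212.7, 150.2 and 214.2 CPM in the controls and at 129.6, 102.7 and 146.4 CPM with Insm1. Its lowest control lay just above its highest Insm1 library, and Map2 and Dcx overlapped between groups. The part of these shifts in the members' values was not tested, and in bulk samples fewer cells of a type and less RNA per cell cannot be told apart.

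The stretches of 250 bases before the annotated start are shown for 4 members that mark the extremes of the data: Cdkn1a, by far the least abundant, Cdkn1b, whose groups did not overlap, Btg2, among the members whose groups differed least, and Gadd45g, the most variable in the controls. They are from RefSeq on GRCm38.p6 and read 5′ to 3′ on the strand of the gene, at chr17:29090729-29090978 (plus), chr6:134920151-134920400 (plus), chr1:134079156-134079405 (minus) and chr13:51846425-51846674 (plus). Capitals mark p53 recognition decamers in Cdkn1a (the upstream of 2 annotated starts), CCAAT and GGGCGG in Cdkn1b, these and TGACGTCA (the cyclic AMP response element) in Btg2, and CAGCTG (an E-box), CCAAT and TATAAA in Gadd45g.
Cdkn1a: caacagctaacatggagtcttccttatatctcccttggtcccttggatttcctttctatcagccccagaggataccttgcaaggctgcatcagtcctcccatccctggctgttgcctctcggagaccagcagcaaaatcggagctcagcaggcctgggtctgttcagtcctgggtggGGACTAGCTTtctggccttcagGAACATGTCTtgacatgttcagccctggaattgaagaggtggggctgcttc
Cdkn1b: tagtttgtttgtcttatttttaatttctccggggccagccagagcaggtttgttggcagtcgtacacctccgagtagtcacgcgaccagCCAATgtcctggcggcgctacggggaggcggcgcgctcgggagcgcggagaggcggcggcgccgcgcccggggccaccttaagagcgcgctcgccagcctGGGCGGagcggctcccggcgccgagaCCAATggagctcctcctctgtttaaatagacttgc
Btg2: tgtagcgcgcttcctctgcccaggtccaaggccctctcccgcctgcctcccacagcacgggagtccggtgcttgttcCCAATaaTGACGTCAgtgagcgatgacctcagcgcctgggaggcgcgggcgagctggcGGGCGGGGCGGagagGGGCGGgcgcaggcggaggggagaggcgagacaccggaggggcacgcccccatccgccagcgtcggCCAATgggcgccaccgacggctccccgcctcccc
Gadd45g: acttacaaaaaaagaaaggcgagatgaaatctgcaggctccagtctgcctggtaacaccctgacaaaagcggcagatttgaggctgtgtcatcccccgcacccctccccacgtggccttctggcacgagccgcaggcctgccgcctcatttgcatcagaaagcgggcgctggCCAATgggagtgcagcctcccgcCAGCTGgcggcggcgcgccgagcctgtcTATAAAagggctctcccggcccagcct

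The promoter table held 11 windows for 9 of the 10 members, and Cdkn1c had no entry. Both strands were searched, and the only overlap among the marked matches was a pair of GGGCGG matches in Btg2. The E-box CAGCTG was found in 1 of the 11 windows, that of Gadd45g, and in 13% of all 32851 windows of the same length. The E-box CAGATG was found in none of the 11 windows and in 14.4% of all. TGACGTCA was found in 1 member window (Btg2) and 1.55% of all, and CAGGGGGC, the core of a published Insm1 motif, in 1 (Btg1) and 2.52% of all. CCAAT was in 6 of the 11 and 33.8% of all, GGGCGG in 8 and 32.7%, TATAAA in 3 and 12.4%, and the p53 decamer in 2 (Cdkn1a and Cdkn2d) and 7.13%. The E2f motifs TTTCCCGC and TTTGGCGC were in none of the 11 and 1.30% of all. These are matches of letters and not binding sites.

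Among the Cip/Kip inhibitors, Cdkn1b was the member with the cleanest separation of the groups. It stood at 103, 123 and 90.5 CPM in controls 1, 2 and 3 and at 128, 133 and 131 CPM in Insm1 libraries 1, 2 and 3. Every Insm1 library was above every control, and the gap between control 2 and Insm1 library 1 was small beside the spread of the controls. The means were 105.5 ± 16.4 and 130.8 ± 2.56 CPM (SD, n = 3 each). On the log2 scale the difference was 0.31 (standard error 0.10, 95% interval 0.08 to 0.54), or 1.24-fold. The adjusted p from edgeR was 0.143. Without control 2, the highest control, the log2 fold change was 0.44 and the adjusted p 0.0177, the only fit that called Cdkn1b. The spread of the Insm1 libraries, a coefficient of variation of 1.96%, was lower than in all but 5.72% of the 7708 genes with a mean of at least 20 CPM, whereas the controls, at 15.6%, were more variable than 89.6% of them.

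Cdkn1c, an imprinted gene expressed from the maternal allele, was the most abundant Cip/Kip transcript. It stood at 227.5, 171.5 and 199 CPM in controls 1, 2 and 3 and at 265, 266.5 and 223 CPM in Insm1 libraries 1, 2 and 3. Insm1 libraries 1 and 2 were above all controls, but Insm1 library 3 was below control 1, so the groups overlapped. This came to a log2 difference of 0.33 (standard error 0.11, 95% interval 0.10 to 0.57), or 1.26-fold (edgeR adjusted p = 0.134). DESeq2 gave a log2 fold change of 0.34 and an adjusted p of 0.0285, and over all 17 alternatives the adjusted p lay between 0.0285 and 0.332. An antisense transcript, Gm44732, overlaps exons of Cdkn1c and is not in the counts table, and since the libraries mark no strand its reads could be counted for Cdkn1c.

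Cdkn1a, the inhibitor best known as a target of p53, was scarce. It stood at 5.25, 3.21 and 3.46 CPM in the controls and at 6.17, 4.64 and 4.56 CPM in the Insm1 libraries, from 99 to 191 reads a library. Insm1 library 1 was the highest of the 6, and control 1 was above the other Insm1 libraries. Its log2 fold change of 0.37 was the highest of the 10 members, but the standard error was 0.27 and the 95% interval ran from -0.25 to 0.98 (edgeR adjusted p = 0.574). An unclassified transcript on the other strand overlaps its exons.

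**Figure D1:**
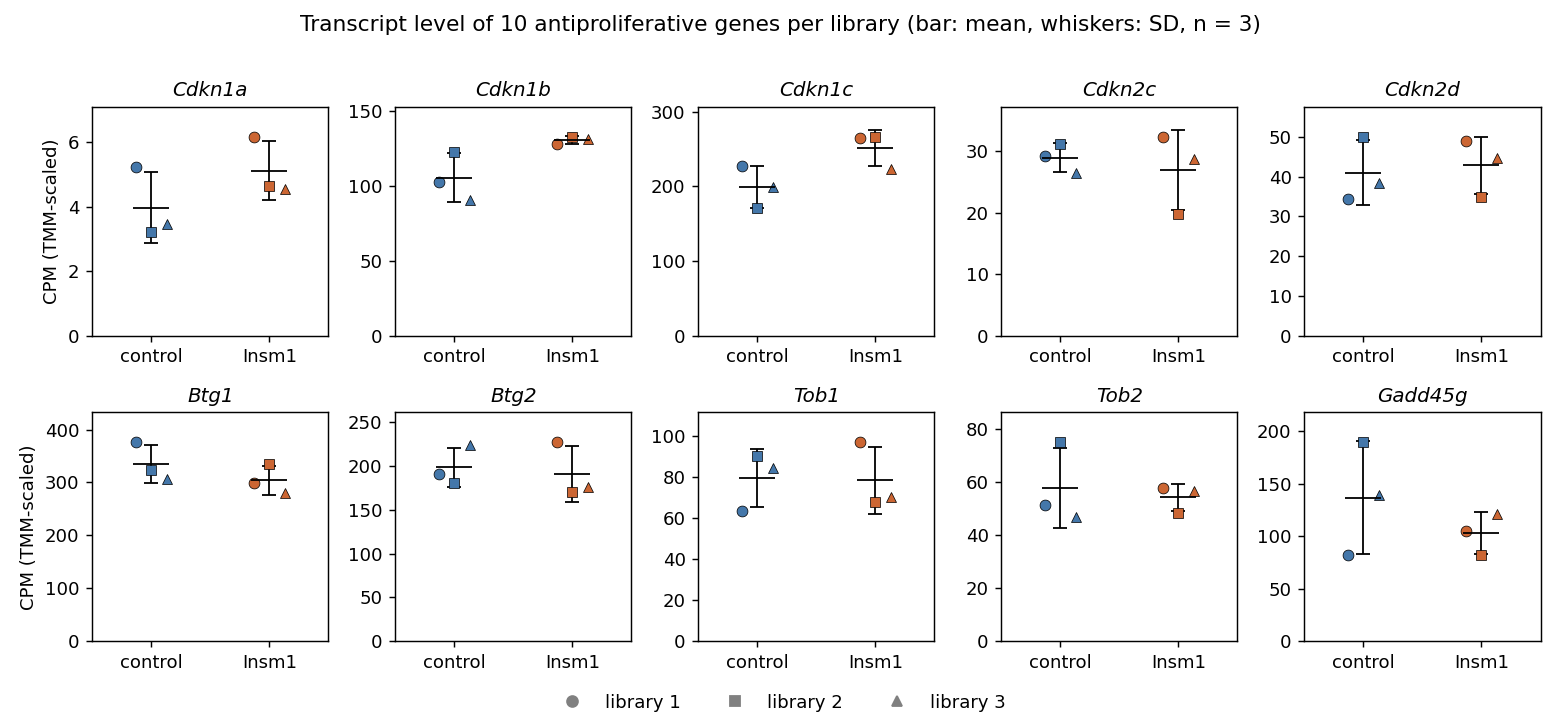
Transcript level of each member in CPM (vertical axis from 0, TMM-scaled) in the 3 control (blue) and 3 Insm1 (orange) libraries; marker shapes give the library number, horizontal bars the mean and whiskers the SD. Only in Cdkn1b do the points of the groups not overlap, and Gadd45g spans 82.2 to 189.5 CPM in the controls.

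The Ink4 pair did not separate the groups. Cdkn2d, which inhibits Cdk4 and Cdk6, stood at 34.4, 50.04 and 38.4 CPM in controls 1, 2 and 3 and at 49.0, 34.9 and 44.6 CPM in Insm1 libraries 1, 2 and 3. Control 2 and Insm1 library 1 were high and control 1 and Insm1 library 2 low, so each group spanned nearly the whole range. Cdkn2d had a log2 fold change of 0.07, with a 95% interval from -0.30 to 0.43 (edgeR adjusted p = 0.896). Cdkn2c, the other Ink4 gene with counts, stood at 29.2, 31.1 and 26.4 CPM in the controls and at 32.4, 19.8 and 28.7 CPM in the Insm1 libraries. Its highest and its lowest value were both in the Insm1 group, and the log2 fold change was -0.10, with an interval from -0.48 to 0.28 (edgeR adjusted p = 0.840). The remaining Ink4 genes were not expressed at a measurable level: Cdkn2a had 0 counts in all 6 libraries, which allows at most 3 counts or 0.0979 CPM in a library (counting error only), and Cdkn2b had 0 counts in the controls and 0, 9 and 1 in the Insm1 libraries.

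Btg1 and Btg2, the short members of the Btg/Tob family, were the more abundant ones. Btg1 stood at 376, 323 and 306 CPM in controls 1, 2 and 3 and at 298, 334 and 280.2 CPM in Insm1 libraries 1, 2 and 3. Insm1 library 2 was above controls 2 and 3, so the groups overlapped. Btg1 had a log2 fold change of -0.14, with a 95% interval from -0.34 to 0.06 (edgeR adjusted p = 0.496), and it was negative in all 17 alternatives. Btg2, the marker of neurogenic progenitors, stood at 191, 181 and 224 CPM in the controls and at 227, 169.9 and 176 CPM in the Insm1 libraries. The highest and the lowest library were again both from the Insm1 group. For Btg2 the log2 difference was -0.06 (standard error 0.12), and its 95% interval from -0.32 to 0.21 corresponds to between 0.801 and 1.16 times the control level (edgeR adjusted p = 0.875).

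The Tob genes, which carry a longer tail than the Btg genes, were lower in level. Tob1 stood at 63.7, 90.5 and 84.6 CPM in controls 1, 2 and 3 and at 97.1, 67.9 and 70.3 CPM in Insm1 libraries 1, 2 and 3. One library of each group lay apart, control 1 low and Insm1 library 1 high, and the log2 fold change was -0.02, with an interval from -0.39 to 0.34 (edgeR adjusted p = 0.971). Tob2 stood at 51.4, 74.9 and 46.6 CPM in the controls and at 57.6, 48.5 and 56.4 CPM in the Insm1 libraries. Control 2 was above the other 5 libraries, which lay within 46.6 to 57.6 CPM. Tob2 had a log2 fold change of -0.09 with all libraries (edgeR adjusted p = 0.857) and 0.15 without control 2 (adjusted p = 0.563). An antisense transcript, Gm49476, overlaps its exons.

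Gadd45g had the most negative value and the widest spread. It stood at 82.2, 189.5 and 139 CPM in controls 1, 2 and 3 and at 105, 82.3 and 122 CPM in Insm1 libraries 1, 2 and 3. The lowest control and the lowest Insm1 library were level, and controls 2 and 3 were above all Insm1 libraries. The coefficient of variation of the controls was 39.2%, above that of 99.6% of genes with a mean of at least 20 CPM, whose median was 6.97%. Between groups the log2 difference was -0.41 (standard error 0.33, 95% interval -1.24 to 0.42), or 0.425 to 1.33 times the control level (edgeR adjusted p = 0.631). It was -0.10 without control 2 and -0.66 without control 1.

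**Figure D2:**
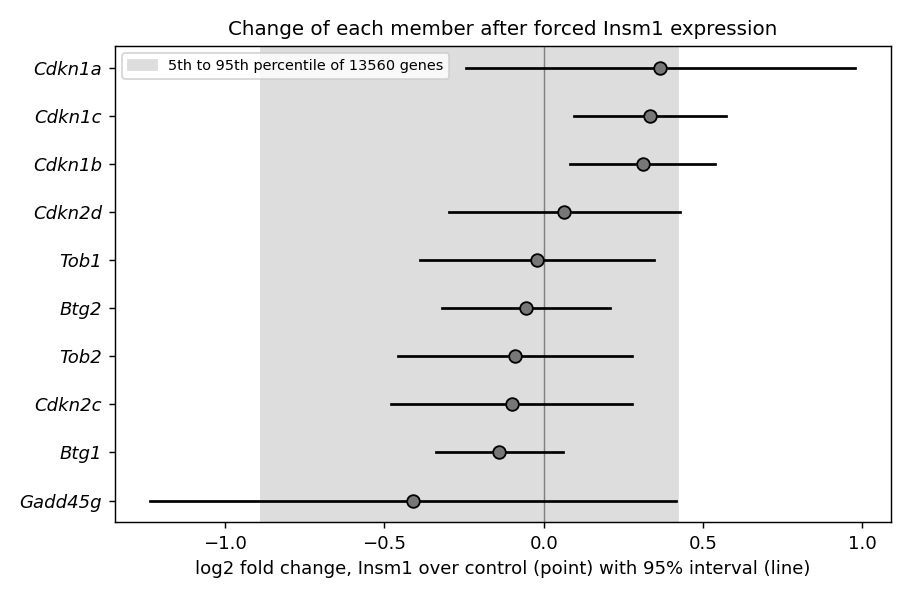
Log2 fold change of each member, Insm1 over control (points), with its 95% interval from edgeR's quasi-likelihood fit (lines); the grey band spans the 5th to 95th percentile of 13560 tested genes, from -0.89 to 0.42. The intervals of Cdkn1b and Cdkn1c lie above 0, and those of the other 8 members include 0.

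Levels of different genes were set side by side in TPM, the deposited unit that divides each count by gene length before scaling to the library. In the controls the order by mean was Gadd45g (681 ± 261 TPM), Cdkn1c (656 ± 95.7), Btg1 (514 ± 51.6), Btg2 (448 ± 61.3), Cdkn1b (183.5 ± 24.8), Tob1 (176 ± 31.2), Cdkn2d (121.5 ± 22.6), Tob2 (50.9 ± 12.4), Cdkn2c (40.8 ± 2.45) and Cdkn1a (3.63 ± 1.00 TPM; SD, n = 3 for each). The order falls into tiers. Neighbours overlapped in TPM from Gadd45g down to Btg2, from Cdkn1b down to Cdkn2d, and from Tob2 to Cdkn2c. Btg2 lay wholly above Cdkn1b, Cdkn2d above Tob2, and Cdkn2c above Cdkn1a. In the Insm1 libraries Cdkn1c was first, at 789 ± 75.8 TPM, and lay wholly above Gadd45g, at 490 ± 94.0 TPM (SD, n = 3 each), while the order of the other 8 was the same.

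**Figure D3:**
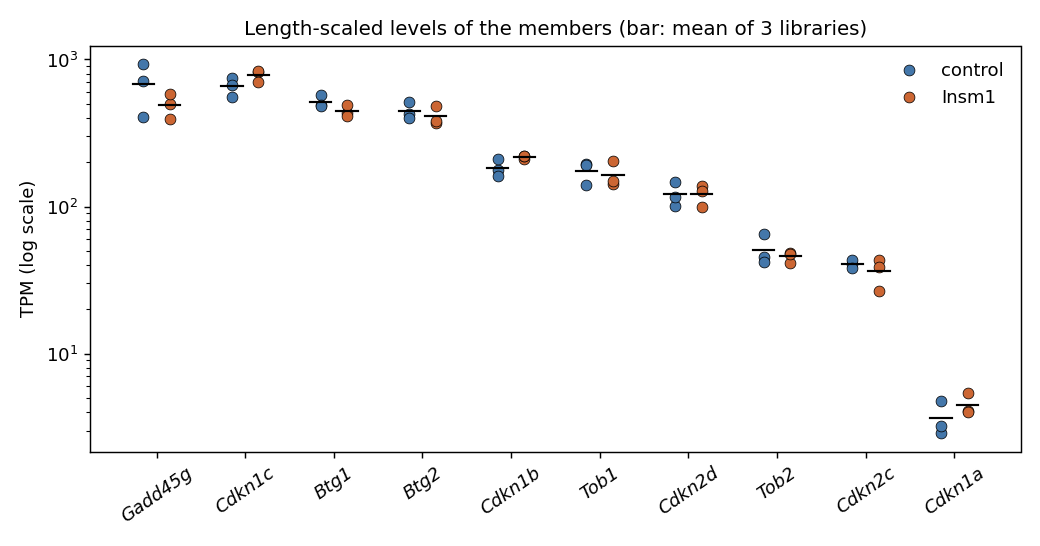
Deposited TPM values (vertical axis, log scale) of the 10 members, ordered by control mean, with 1 point per library (blue control, orange Insm1) and a bar at the mean of 3. The levels run from 926 TPM for Gadd45g in control 2 to 2.89 TPM for Cdkn1a in the same library.

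Within the Cip/Kip and the Btg/Tob genes each gene's share of the summed TPM differed between groups by less than the SD of either group. Cdkn1c was 77.6 ± 4.66% of summed Cip/Kip TPM in the controls and 77.9 ± 1.81% with Insm1 (SD, n = 3 each), and Cdkn1b was 22.0 ± 4.70% and 21.6 ± 1.83%. The Cip/Kip sum itself was 926.5, 767 and 835 TPM in controls 1, 2 and 3 and 1043, 1066 and 925 TPM in Insm1 libraries 1, 2 and 3, so that control 1 and Insm1 library 3 were level. Cdkn2d was 74.6 ± 3.06% of Ink4 TPM in the controls and 77.2 ± 1.40% with Insm1 (SD, n = 3 each). Its shares overlapped between groups, running from 71.2 to 77.2% and from 76.1 to 78.8%, and the difference was not tested. Btg1 was 43.3 ± 4.70% and 42.0 ± 5.03% of Btg/Tob TPM, and Btg2 37.6 ± 3.81% and 38.4 ± 3.13% (SD, n = 3 each). The Btg/Tob sum was 1186, 1149 and 1233 TPM in the controls and 1173, 1044 and 989 TPM in the Insm1 libraries, which overlapped because Insm1 library 1 was above control 2.

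In several members the extreme values of a group came from the same libraries. How often each library was highest or lowest over all tested genes was not counted, so the pattern may not be particular to the members. Over the whole table control 2 differed more from controls 1 and 3 (chi-square over degrees of freedom 31.24 and 30.21) than those did from each other (12.51). Within the controls, control 2 was the highest library in 6 of 10 members (Cdkn1b, Cdkn2c, Cdkn2d, Tob1, Tob2 and Gadd45g) and the lowest in 3 (Cdkn1a, Cdkn1c and Btg2). Within the Insm1 group, library 1 was the highest in 6 members and library 2 the lowest in 6. Of 12 proliferation genes, control 2 was the highest control in 9 and control 3 in 3, among them Pcna and Mcm6. Insm1 library 1 was the highest of its group in all 12 of these genes, and Insm1 library 2 the lowest in 11, Mcm6 being the exception. Top2a, the topoisomerase of replicating chromosomes, stood at 575, 785 and 639.5 CPM in controls 1, 2 and 3 and at 776.5, 539 and 678 CPM in Insm1 libraries 1, 2 and 3. Cdkn2d put the 6 libraries in the same order as Top2a except that the lowest pair, control 1 and Insm1 library 2, was exchanged. Red cell and microglial transcripts were also highest among the controls in control 2. The part of these transcripts and of the proliferation genes in the members' values was not tested.

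For each member the most similar genes were sought among 7699 others with a mean of at least 20 CPM, by Pearson's r of log2 CPM over the 6 libraries, as a description. With so few libraries, many genes reach a high r. For Cdkn1b they were Fam89b (r = 0.995) and Ankrd10 (0.994), and for Cdkn1c they were Crip2 (0.984) and Cnot8 (0.983). Those of Cdkn2d were Osgep (0.996) and Cenpl (0.996), and those of Tob2 were Nosip (0.986) and the mitotic kinase gene Aurkb (0.974). Those of Cdkn2c were Timm23 (0.998) and Nup62 (0.992), and those of Cdkn1a were the ribosomal protein genes Rps15 (0.993) and Rps23 (0.992). Those of Btg1 were Rpsa (0.982) and Sept9 (0.981), of Btg2 Fkbp5 (0.990) and Snrpa (0.975), of Tob1 Unk (0.969) and Ewsr1 (0.959), and of Gadd45g Rnf169 (0.984) and Tbl3 (0.982).

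The kinases and cyclins that the Cdk inhibitors act on did not pass the test either. Of 10 cyclin and Cdk genes of G1 and S phase, 0 were called by edgeR or DESeq2 (at an unadjusted p below 0.05 in edgeR, 0 higher and 2 lower), with 8 negative and 2 positive and a median log2 fold change of -0.10, against -0.01 over all tested genes. The cyclin D gene of highest level, Ccnd2, stood at 922, 965 and 906 CPM in the controls and at 984, 842 and 829.9 CPM in the Insm1 libraries (log2 fold change -0.07, edgeR adjusted p = 0.687). Cdk4 was at 831, 857 and 798 CPM and at 869, 866 and 875.5 CPM (0.07, adjusted p = 0.553). The groups of Cdk4 did not overlap in CPM, although the difference was only 0.07. In deposited TPM they did overlap, at 1678, 1710 and 1662 in the controls and 1676, 1686 and 1706 in the Insm1 libraries. For Ccnd3, named after its values were seen, all Insm1 libraries were below all controls in both CPM and TPM. Its log2 fold change was -0.30 (edgeR adjusted p = 0.175). Of 7 mitotic genes 0 were called by either tool (unadjusted, 0 higher and 0 lower), with a median of -0.10, and Ccnb1 and Cdk1 had log2 fold changes of -0.10 and -0.08 (edgeR adjusted p = 0.813 and 0.833). Of 13 pocket protein and E2f genes 0 were called by either tool (unadjusted, 0 higher and 3 lower), 10 were negative and the median was -0.16. In this list the retinoblastoma gene Rb1 had a log2 fold change of 0.02 and Tfdp1, the partner of E2f factors, of -0.18 (edgeR adjusted p = 0.950 and 0.251). Of 12 proliferation markers edgeR called 0 (unadjusted, 0 higher and 3 lower) and DESeq2 called Pcna and Mcm6 lower, and 11 were negative, with a median of -0.15, with Top2a at -0.00 and Mki67 at -0.14 (edgeR adjusted p = 0.993 and 0.741). In 3 of the 12, Pcna, Mcm2 and Mcm6, all Insm1 libraries were below all controls in both CPM and TPM, and in 0 they were above in CPM. The pocket protein and E2f list also had 3 of 13 below in CPM and 0 above. Over all tested genes 11.8% were below and 10.4% above in CPM.

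Among 13 genes for the turnover of Cip/Kip proteins, 1 was called lower by edgeR and 0 higher, against 2.12% and 1.23% of all tested genes. At an unadjusted p below 0.05, 1 was higher and 2 lower, and the list median was -0.03. The gene called was Dtl (Cdt2), the substrate receptor of the Cul4-Ddb1 ubiquitin ligase that marks p21 and other proteins for destruction during S phase. Dtl stood at 92.6, 99.8 and 96.4 CPM in controls 1, 2 and 3 and at 71.1, 63.7 and 58.3 CPM in Insm1 libraries 1, 2 and 3. All Insm1 libraries were below all controls, by a margin several times the spread of the controls. Dtl fell by 0.58 on the log2 scale (standard error 0.09, edgeR adjusted p = 0.0100). The call was lost without control 3 (adjusted p = 0.0517) and in limma on log2(TPM + 1) (0.0518), and the log2 fold change lay between -0.66 and -0.51 with single libraries left out. Its partners Ddb1 and Cul4a had log2 fold changes of -0.01 and -0.15 and did not pass (edgeR adjusted p = 0.959 and 0.376), and these, like Cul4b at 0.00 (adjusted p = 0.995), were chosen after their values were seen. Fbxw7, chosen in the same way, had a log2 fold change of -0.34 (edgeR adjusted p = 0.140). In Dtl and Fbxw7, 2 of the 13, all Insm1 libraries were below all controls in CPM, and in 0 they were above. Over all tested genes these shares were 11.8% and 10.4%.

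The list of FoxO and quiescence genes, some of which act upstream of Cdkn1b, had 1 of 8 genes called higher and 0 lower by edgeR. Over all tested genes 1.23% were called higher and 2.12% lower. At an unadjusted p below 0.05, 1 gene was higher and 1 lower, and the list median was 0.13. The gene called was Foxo1, a factor known to activate Cdkn1b in other tissues, at 15.1, 14.7 and 14.9 CPM in the controls and 29.8, 26.3 and 30.1 CPM in the Insm1 libraries. It rose by 0.95 on the log2 scale (standard error 0.12, edgeR adjusted p = 0.00536) and passed in all 6 fits that omit 1 library. Limma on log2(TPM + 1) gave an adjusted p of 0.0518 and on log2(TPM + 0.1) of 0.0556, both short of the threshold. Foxo3, Foxo4 and Foxo6, named after their values were seen, had log2 fold changes of 0.18, -0.12 and 0.09 (edgeR adjusted p = 0.569, 0.924 and 0.886). Cdkn1b, at a log2 fold change of 0.31, did not pass the same test (edgeR adjusted p = 0.143), and fell just short in DESeq2 (adjusted p = 0.05275). Whether its level followed that of Foxo1 was not tested. Hes1, a Notch target that keeps progenitors undifferentiated, was called lower by DESeq2, by limma-voom, by edgeR without the robust fit and in 2 of 6 edgeR fits that omit 1 library, and is named after its values were seen. It stood at 156.5, 242 and 207 CPM in the controls and at 141.5, 113 and 88.9 CPM in the Insm1 libraries, without overlap, and had a log2 fold change of -0.82 (edgeR adjusted p = 0.0854).

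Among p53 and its target genes, the list to which Cdkn1a belongs by function, 0 of 19 were called by edgeR, 2 were higher and 1 lower at an unadjusted p below 0.05, and 15 had a positive sign, with a median log2 fold change of 0.15. Over all 13560 tested genes 6529 had a positive sign, and the median was -0.01. In CPM, all Insm1 libraries were above all controls in 7 of the 19, where this held for 10.4% of tested genes. In 2 they were below, where it held for 11.8%. The separation upward depended on the unit. In deposited TPM the groups overlapped for Mdm2, Mdm4, Bax, Phlda3 and Zmat3, while Bbc3 and Eda2r stayed higher without overlap. DESeq2 called Trp53inp1 higher and Plk2 lower. Trp53 itself stood at 257, 291 and 237 CPM in the controls and at 276, 278 and 263 CPM in the Insm1 libraries (log2 fold change 0.06, edgeR adjusted p = 0.794). Trp53inp1 stood at 217, 193 and 187 CPM and at 216, 258 and 249 CPM (0.28, edgeR adjusted p = 0.112). Insm1 library 1 was level with control 1 for this gene, so the groups overlapped. Plk2, chosen after its values were seen, had a log2 fold change of -1.26 and an adjusted p of 0.0557, just outside the threshold.

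Partners of the Btg, Tob and Gadd45 proteins did not pass the test. Of 16 genes of the Ccr4-Not complex and other Btg/Tob partners 0 were called by edgeR, with 8 positive, 8 negative, 1 higher and 1 lower at an unadjusted p below 0.05, and a median of 0.00. The deadenylase genes Cnot7 and Cnot8, to which Btg and Tob proteins bind, had log2 fold changes of -0.02 and 0.15 (edgeR adjusted p = 0.907 and 0.285). Prmt1, the arginine methyltransferase that binds Btg1 and Btg2, was at -0.00 and Pabpc1, the cytoplasmic poly(A)-binding protein gene, at -0.12 (adjusted p = 0.991 and 0.373). Of 9 kinase genes downstream of Gadd45 proteins 0 were called by edgeR or DESeq2 (unadjusted in edgeR, 1 higher and 0 lower), with a median of 0.01, and Map2k4 and Mapk14 were at 0.00 and -0.09 (adjusted p = 0.999 and 0.745). Map3k4 and Mapk11, named after their values were seen, were at 0.18 and 0.27 (edgeR adjusted p = 0.484 and 0.202). In these 2 of the 9 all Insm1 libraries were above all controls in CPM, and in 0 they were below. Over all tested genes these shares were 10.4% and 11.8%. In TPM Map3k4 stayed without overlap and Mapk11 overlapped. Of the other Btg and Gadd45 genes 0 of 4 tested were called by either tool (unadjusted, 1 higher and 0 lower). Btg3 had a log2 fold change of -0.14 and Gadd45gip1, a mitochondrial protein gene named for its binding to Gadd45g, of 0.28 (edgeR adjusted p = 0.627 and 0.162), and Btg4 had 0 counts in all 6 libraries. Cdkn3, a phosphatase of Cdk2, stood at 0.14 (adjusted p = 0.815).

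**Figure D4:**
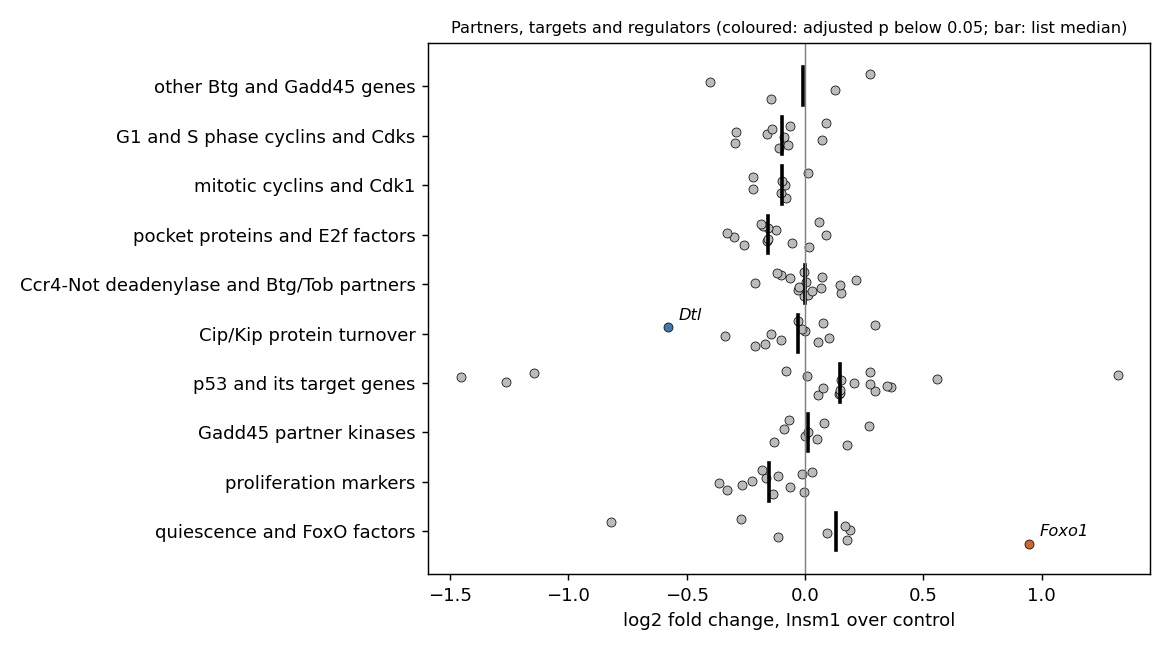
Log2 fold change, Insm1 over control (horizontal axis), of each tested gene in 10 lists of partners, targets and regulators of the members; 1 point is 1 gene and black bars are list medians. Only Dtl (blue, lower) and Foxo1 (orange, higher) passed an adjusted p of 0.05 in edgeR's test.

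In the GENCODE M21 annotation of GRCm38 all 10 members are protein-coding genes. Cdkn1a lies at chr17:29090976-29100727 (plus strand), Cdkn1b at chr6:134920401-134925513 (plus) and Cdkn1c at chr7:143458339-143461050 (minus). Cdkn2c lies at chr4:109660876-109667189 (minus) and Cdkn2d at chr9:21288410-21291407 (minus). Btg1 lies at chr10:96617006-96622809 (plus), Btg2 at chr1:134075170-134079120 (minus), Tob1 at chr11:94211454-94215495 (plus), Tob2 at chr15:81848272-81858796 (minus) and Gadd45g at chr13:51846678-51848468 (plus). No member shares exon sequence with another gene of the counts table that this annotation holds. It held 21492 of the 22001 identifiers, and the rest could not be checked.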

How the data were processed

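RNA-seq was compared between 3 control and 3 Insm1 libraries. Per the labels' protocols, cDNA was primed with poly-dT, made by template switching, amplified for 12 cycles, sheared, amplified for 15 more and read as single 75-base ends. No step that keeps strand or molecular identifiers is described. The build GRCm38 and the tools TopHat2 2.0.13, Bowtie and bcl2fastq come from the submitters' processing notes. How reads were counted, and over which annotation, is not given in the sources used here. Deposited counts are whole numbers per Ensembl gene, and the authors' TPM values cover the same genes, 333 of them blank. Intervals and floors cover counting error or the spread of these libraries only.

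Genes were kept by filterByExpr, scaled by TMM and tested with edgeR 4.0.16 (R 4.3.3, robust quasi-likelihood fit to group alone, two-sided). Calls are at a Benjamini-Hochberg adjusted p below 0.05 over 13560 genes. The 95% intervals use the fit's total degrees of freedom. The fit was also run on simulated data in which every changed gene differed by more than any member did here. It therefore does not show how often changes of the members' size would be called. The members, the 11 gene lists and the naming rule were chosen with earlier results of these data known. The rule names all members, called genes of each list or, with none, the 2 of highest CPM, and the 2 genes most alike each member. Ccna2 is in 2 lists. As alternatives, DESeq2 1.42.0, limma-voom (limma 3.58.1), RLE scaling, upper-quartile scaling, limma on log2(TPM + 1) and log2(TPM + 0.1), other filters, a fit that is not robust, a replicate block, removal of Insm1 counts and leaving out each library were run. Of 22001 identifiers 21492 were in GENCODE M21. Libraries of 1 group differed beyond sampling noise (chi-square over degrees of freedom 12.51 to 31.24), so none was counted as a duplicate.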

Additional observations from a re-analysis of the deposited data

How the results depend on the processing

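Of 169 values of the 10 members under alternatives, 156 kept direction and call, 2 passed the threshold (Cdkn1c in DESeq2, Cdkn1b without control 2, so 1 member was called in each of these fits) and 11 changed sign, none of them past the threshold. With single libraries left out, log2 fold changes ran from -0.254 to 0.078 for Cdkn2c, -0.0422 to 0.238 for Cdkn2d, -0.200 to 0.0432 for Btg2, -0.205 to 0.0839 for Tob1 and -0.22 to 0.15 for Tob2, and the number of members called higher was 0 to 1. Cdkn1a was removed by the filter at 5 CPM. The causes of these shifts were not tested.

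Genes called higher over the whole table numbered 167, from 43 to 227 with single libraries left out, 424 in DESeq2, and 15 and 14 in limma on log2(TPM + 0.1) and log2(TPM + 1). Genes called lower numbered 287, from 73 to 418, 592 in DESeq2, and 49 and 46. Without control 3, 116 genes were called in all. Over the 11 lists, 1 gene was called higher, 2 in DESeq2 and 0 in both TPM fits, where Foxo1 missed the threshold (adjusted p = 0.0556 and 0.0518). In the lists 1 gene was called lower, 5 in DESeq2 (Dtl, Hes1, Mcm6, Pcna and Plk2), 3 with the filter at 5 CPM and without the robust fit, 2 in limma-voom, with no filter and with upper-quartile scaling, 0 in limma on log2(TPM + 1), and 0 to 5 with single libraries left out.

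Among list genes whose values changed sign, none passed. With single libraries left out Ccnb1 ran from -0.234 to 0.0629, Cdk1 from -0.168 to 0.0606, Rb1 from -0.0361 to 0.0746, Prmt1 from -0.0289 to 0.0287, Trp53 from -0.0058 to 0.143, Map2k4 from -0.0595 to 0.0456, Top2a from -0.13 to 0.13 and Mki67 from -0.258 to 0.0252. In limma on log2(TPM + 0.1) and log2(TPM + 1), Rb1 was at -0.049 and -0.045, Trp53 at -0.0031 and -0.0031, and Map2k4 at -0.063 and -0.058. Map2k4 was at -0.011 with the filter at 5 CPM and -0.013 with upper-quartile scaling, Prmt1 at 0.0018 in DESeq2 and RLE scaling and 0.0054 with no filter, and Top2a at 0.0044 with no filter.

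The labels number libraries 1 to 3 in each group. Deviations from the group means correlated between same-numbered libraries at 0.074, 0.035 and -0.055, so the numbers were not taken as pairs. With the number as a replicate block 115 genes were called higher and 216 lower, 0 members in either direction, and 1 list gene higher and 2 lower (Dtl and Plk2).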
